A study of Mus musculus with 6 samples.

Results

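The carbonic anhydrase genes examined here are 10 named members of the family, Car2, Car3, Car4, Car5b, Car6, Car8, Car9, Car12, Car13 and Car14, taken by gene symbol from the 22180 genes that could be named and tested on the arrays. A gene was read by the probe set that the platform annotation assigns to that symbol alone, and, where a gene had several, by the probe set that was brightest on average. By this rule 9 of the 10 members had a value. Car14, a transmembrane form, was read only by a probe set that the annotation also assigns to its neighbour Aph1a, so it has no value of its own here.

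The material was mammary stem cells of the mouse, kept in culture as organoids, which are small epithelial structures grown in 3 dimensions. The arrays comprised 3 of Mll3-null cells and 3 of wild-type (WT) cells, with lines made by CRISPR. The question was what loss of MLL3, the histone methyltransferase of enhancers encoded by Kmt2c, does to these cells. No label gives the nature of the CRISPR allele, the number of clones, or whether replicates of a group were separate lines or cultures of 1 line, so the p-values measure only the spread between these samples, which may be technical.

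Carbonic anhydrases interconvert carbon dioxide and water with bicarbonate and a proton. The isoforms differ mainly in where they work: Car2, Car3 and Car13 in the cytosol, Car5b in mitochondria, Car6 outside the cell as a secreted enzyme found in saliva and milk, and Car4, Car9, Car12 and Car14 on the outer face of the plasma membrane. Car8 has lost the catalytic activity and binds the inositol trisphosphate receptor. Car9 and Car12 are the membrane forms known to be induced by the hypoxia-inducible factors (HIF) in tumour cells, where they hydrate exported carbon dioxide and so help the cell to keep its interior from acidifying. In human cells CA9 is switched on through a HIF element placed just upstream of its start site.

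The RefSeq table of promoters, windows of 250 bases before to 50 bases after each annotated start in GRCm38.p6, held 6 of the 10 members. The sequences of the HIF-induced pair, and of Car6, the member with the widest difference between the groups, are shown because they can be set beside the array values that follow. They were searched on both strands for the HIF core motif in its forms ACGTG and GCGTG. Capitals mark ACGTG on either strand, which reads CACGT on the printed strand where the match is on the opposite one. The windows are chr4:43506776-43507075 on the plus strand for Car9, chr9:66713436-66713735 on the plus strand for Car12 and chr4:150201086-150201385 on the minus strand for Car6, each printed 5′ to 3′ along its gene.
Car9: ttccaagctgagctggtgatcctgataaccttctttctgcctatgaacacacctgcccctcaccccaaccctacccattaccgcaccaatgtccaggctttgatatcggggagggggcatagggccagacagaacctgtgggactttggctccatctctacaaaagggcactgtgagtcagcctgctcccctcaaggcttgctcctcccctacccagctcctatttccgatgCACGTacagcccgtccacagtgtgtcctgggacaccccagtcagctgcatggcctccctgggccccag
Car12: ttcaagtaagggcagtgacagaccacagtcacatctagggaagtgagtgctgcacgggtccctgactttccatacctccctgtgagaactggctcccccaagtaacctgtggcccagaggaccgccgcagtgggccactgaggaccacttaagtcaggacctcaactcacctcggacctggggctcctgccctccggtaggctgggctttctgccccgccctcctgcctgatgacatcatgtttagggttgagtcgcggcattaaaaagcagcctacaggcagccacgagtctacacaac
Car6: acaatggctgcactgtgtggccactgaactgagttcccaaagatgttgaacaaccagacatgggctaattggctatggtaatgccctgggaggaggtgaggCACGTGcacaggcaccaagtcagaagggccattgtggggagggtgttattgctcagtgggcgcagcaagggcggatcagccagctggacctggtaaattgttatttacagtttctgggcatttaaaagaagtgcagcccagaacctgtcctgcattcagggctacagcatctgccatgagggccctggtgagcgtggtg

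The Car9 window held 1 match to ACGTG, on the opposite strand, from base -18 to base -14 relative to the annotated start. The Car12 window held neither form. In the Car6 window a single CACGTG gave a match on each strand, overlapping from base -149 to base -144, and GCGTG stood downstream of the start at bases 43 to 47. Of the other members with a window, Car4 had 1 ACGTG match, Car14 had 1, and Car5b had none but held 5 matches to GCGTG. Of all 32851 promoter windows 19.6% held ACGTG and 32.4% held GCGTG, so a match is common, and a match is a description of these letters and not a binding site.

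The deposited values were log2 expression summaries with array medians between 4.35 and 4.40, and as these are bulk samples, less RNA per cell and fewer cells of a type cannot be told apart. Kmt2c itself averaged 6.11 ± 0.29 in Mll3-null cells and 6.01 ± 0.55 in WT cells (log2, SD, n = 3 each), but no source says which exons the allele alters or the probe set reads, and the level therefore checks no label. Mll3-null replicate 3 stood apart, with 294 genes more than 1 log2 unit below all 5 other arrays, against 1 to 24 for each other array, and values without it are given beside several of the results. The epithelial markers Epcam, Krt8 and Krt18 were bright on all arrays (10.16 to 11.44). The basal marker Krt14 read 6.65 on Mll3-null replicate 3 and 11.74 to 12.43 on the other 5 arrays.

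No carbonic anhydrase gene passed the test between Mll3-null and WT cells after correction. With limma and Benjamini-Hochberg adjustment over all 22180 genes, 0 of the 9 measured members had an adjusted p under 0.05 (background 0% of genes), and the smallest adjusted p, of a member or of any gene, was 0.84. At an unadjusted p under 0.05, 2 of the 9 members lay past the limit (4.93% of all genes), Car9 and Car12, both with the higher mean in Mll3-null cells (2.51% of all genes were higher and 2.42% lower). By group means 6 members were higher, where 51.5% of all genes were. Car6, Car9, Car12 and Car8 were at least 2-fold higher, 4 of 9 members, while 0.532% of all genes were. These 4 also varied widely within groups. A larger within-group SD was found in 0.370% of all genes for Car6, 3.82% for Car9, 3.91% for Car12 and 3.26% for Car8. Without Mll3-null replicate 2 the count of members was 2, and the share of all genes was not computed for that setting. No member was at least 2-fold lower (0.622% of all genes). The median difference over the 9 members was 0.61 log2 units, against 0.01 over all genes.

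Car9 was the member that separated the groups on every array. It read 8.89, 8.09 and 9.58 in Mll3-null replicates 1 to 3, against 7.50, 6.83 and 7.76 in WT replicates 1 to 3 (log2 expression). The lowest Mll3-null array, replicate 2, lay above the highest WT array, replicate 3. Car9 was the single member of the 9 without overlap, and 5.44% of all genes lay higher without overlap. No member lay lower without overlap (5.31% of all genes). The group means were 8.85 ± 0.75 in Mll3-null cells and 7.36 ± 0.48 in WT cells (SD, n = 3 each), a 2.81-fold difference. On the log2 scale this was 1.49 ± 0.41 (SE; 95% interval 0.51 to 2.47), and limma gave an adjusted p of 0.84.

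A second probe set is assigned to Car9. It was dimmer, at 5.39, 5.49 and 6.18 in Mll3-null replicates 1 to 3 and 5.13, 5.02 and 5.05 in WT replicates 1 to 3. Here too the Mll3-null arrays lay above the WT arrays, with a difference of 0.62 ± 0.21 log2 units (SE), under the 1.49 of the brighter probe set. Both probe sets carry the symbol Car9 and were read on the same arrays, so they are not counted as separate evidence, and where each lies in the gene is not stated in the annotation used. They did not rank the Mll3-null arrays alike: replicate 3 was highest in both, while replicates 1 and 2 stood in opposite order. Over the 6 arrays the probe sets had a Pearson r of 0.884.

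Car12, the other HIF-induced membrane form, was high on 2 Mll3-null arrays. It read 9.90, 11.21 and 10.99 in Mll3-null replicates 1 to 3, against 9.91, 9.57 and 8.88 in WT replicates 1 to 3. Mll3-null replicate 1 lay level with WT replicate 1, so the groups overlapped, and WT replicate 3 was the lowest array. The means of 10.70 ± 0.70 in Mll3-null cells and 9.45 ± 0.53 in WT cells (SD, n = 3 each) stood 2.37-fold apart. Their log2 difference was 1.25 ± 0.40 (SE; 95% interval 0.28 to 2.21), with an adjusted p of 0.84 by limma.

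**Figure D1:**
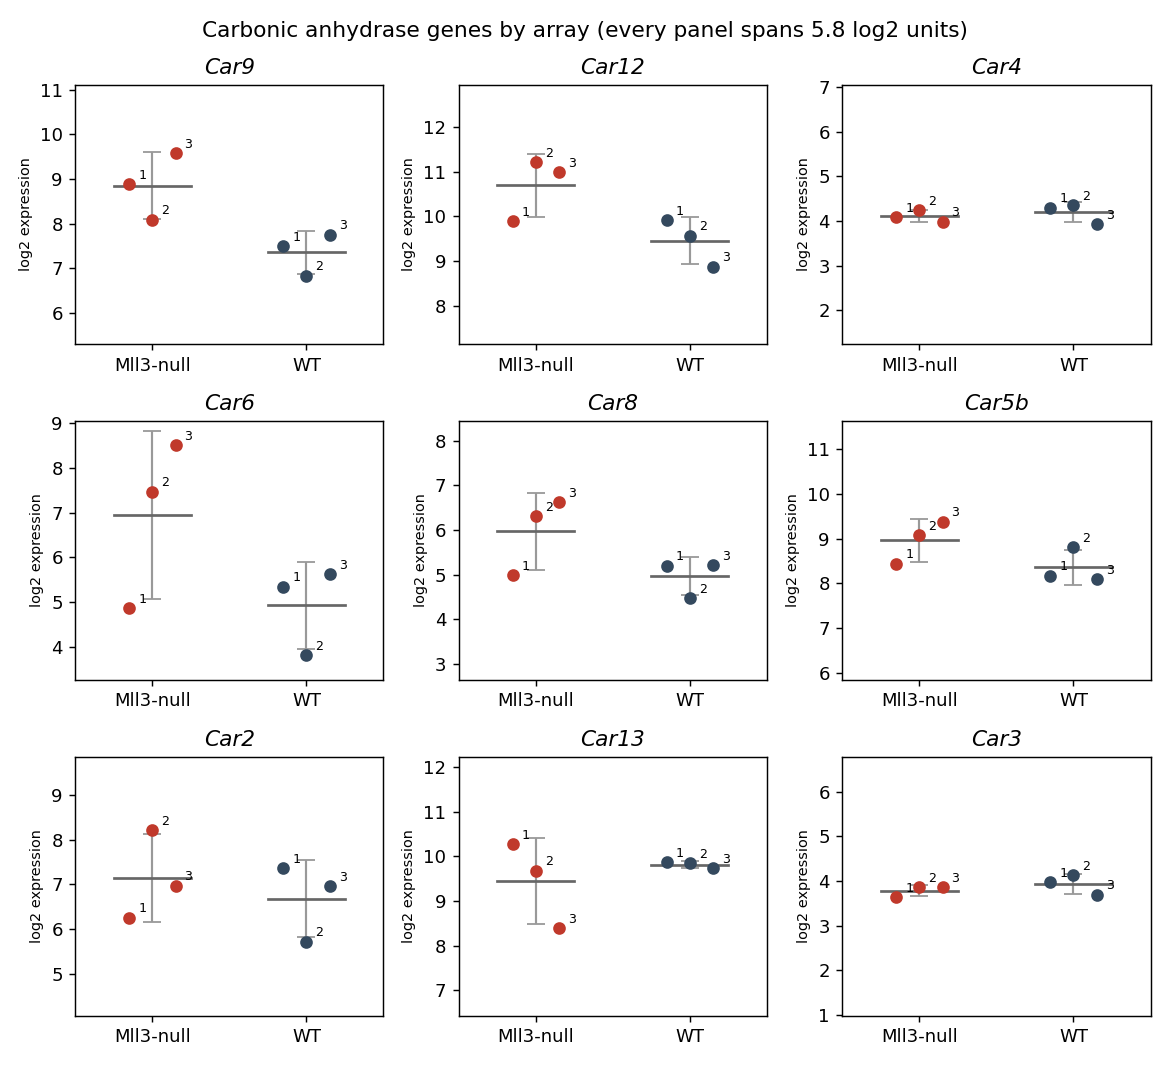
Log2 expression of the 9 measured carbonic anhydrase genes on each array, with Mll3-null arrays in red and WT arrays in dark blue; numbers are replicates, horizontal bars group means and error bars SD (n = 3 each). The 3 Mll3-null arrays of Car9 (8.09 to 9.58) all lie above the WT arrays (6.83 to 7.76), while Mll3-null replicate 1 lies among the WT arrays for Car6 and Car8.

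The secreted form Car6 showed the widest difference of the family and also the widest spread. It read 4.85, 7.47 and 8.50 in Mll3-null replicates 1 to 3, against 5.34, 3.81 and 5.61 in WT replicates 1 to 3. Mll3-null replicate 1 lay inside the WT range, and WT replicate 2 was the lowest array. The means, 6.94 ± 1.88 in Mll3-null cells and 4.92 ± 0.98 in WT cells (SD, n = 3 each), differed by 2.02 ± 0.96 on the log2 scale (SE; 4.06-fold; 95% interval -0.28 to 4.32; adjusted p 0.84 by limma). Of all genes 0.370% had a larger within-group SD. The difference was 1.24 when Mll3-null replicate 3 was left out and 3.06 when Mll3-null replicate 1 was.

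The acatalytic Car8 followed the same order of high and low arrays. It read 4.99, 6.30 and 6.62 in Mll3-null replicates 1 to 3 and 5.21, 4.47 and 5.22 in WT replicates 1 to 3, a difference of 1.01 ± 0.44 (log2, SE; 95% interval -0.05 to 2.07). Over the 6 arrays Car6 and Car8 had a Pearson r of 0.996, given as a description of 6 points that include the difference between the groups. Leaving out Mll3-null replicate 3 gave Car8 a log2 difference of 0.68.

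The mitochondrial Car5b was close to separating the groups but did not. It read 8.45, 9.08 and 9.38 in Mll3-null replicates 1 to 3, against 8.18, 8.81 and 8.10 in WT replicates 1 to 3. WT replicate 2 lay above Mll3-null replicate 1. The difference was 0.61 ± 0.29 (log2, SE; 95% interval -0.08 to 1.30; adjusted p 0.84 by limma), and 0.40 without Mll3-null replicate 3.

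Of the cytosolic forms, Car2, the widespread high-activity isoform, varied between arrays of both groups. It read 6.25, 8.21 and 6.96 in Mll3-null replicates 1 to 3, against 7.36, 5.71 and 6.95 in WT replicates 1 to 3. The difference of 0.47 ± 0.60 (log2, SE) went below 0 when replicate 2 of either group was left out (-0.066 without the Mll3-null and -0.015 without the WT array). Car13 was nearly constant in WT cells (9.74 to 9.87) and ran from 8.39 in Mll3-null replicate 3 to 10.28 in Mll3-null replicate 1. Its difference was -0.37 ± 0.44 (log2, SE), and 0.16 without Mll3-null replicate 3, the array on which Krt14 was low.

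Car3, a low-activity form abundant in muscle and fat, and Car4, which is held to the membrane by a lipid anchor, were dim and showed no difference beyond the spread of their arrays. Car3 ran from 3.63 to 3.86 in Mll3-null cells and from 3.69 to 4.13 in WT cells, under the median of every array. Its difference was -0.15 ± 0.14 (log2, SE; 95% interval from -0.48 to 0.19), and its second, dimmer probe set gave 0.053. Car4 ran from 3.99 to 4.24 in Mll3-null cells and from 3.93 to 4.36 in WT cells, with a difference of -0.09 ± 0.14 (95% interval from -0.43 to 0.25). The 8 of 10 adipocyte markers measured had a mean of 3.80 to 3.85 on Mll3-null arrays and 3.72 to 3.89 on WT arrays, with Adipoq at 3.23 to 3.65 over all 6 arrays. The 6 skeletal muscle markers averaged 5.18 to 5.45 on Mll3-null arrays and 5.10 to 5.25 on WT arrays.

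**Figure D2:**
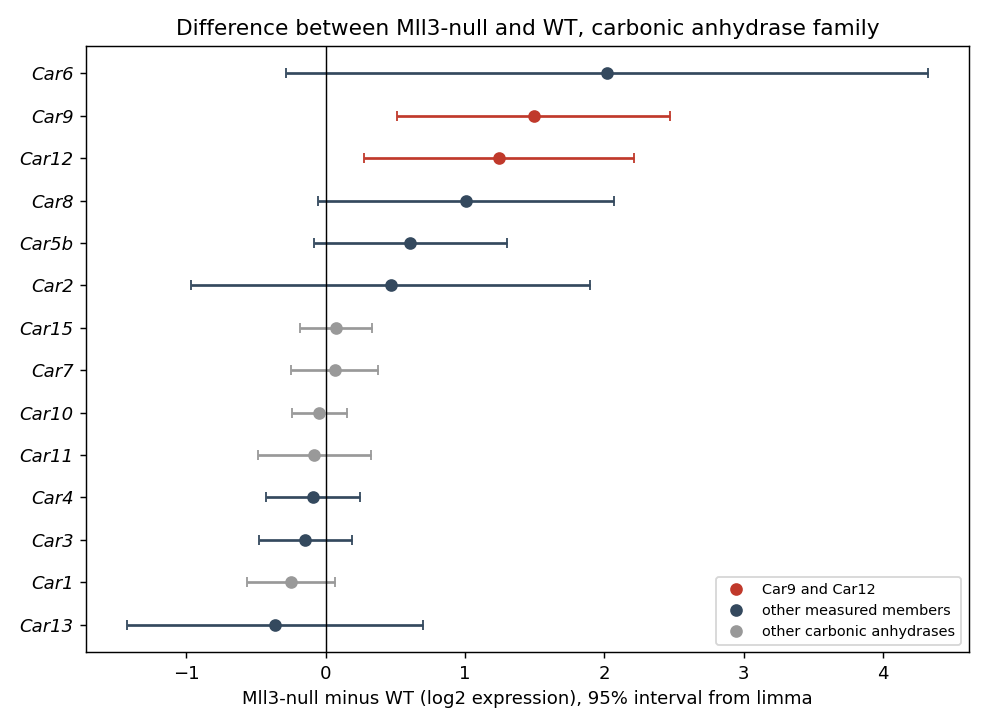
Difference in log2 expression, Mll3-null minus WT, for 9 measured members and 5 further carbonic anhydrase genes, with 95% intervals from limma. The intervals of Car9 and Car12 lie above 0 before correction, that of Car6 is the widest (-0.28 to 4.32), and those of the 5 further genes all include 0.

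The rest of the family was dim. Of 6 further carbonic anhydrase genes, 5 had a probe set of their own: Car1, Car7, Car10, Car11 and Car15. Their differences ran from -0.25 ± 0.13 for Car1, the red-cell form next to Car3 in the genome, to 0.07 ± 0.11 for Car15 (log2, SE), none passed the test, and none separated the groups. Car13, Car1, Car3 and Car2 follow each other on chromosome 3 in the GRCm38.p6 annotation. Of these, Car1 and Car3 lay under the median of every array, and signal over background is unknown for them.

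Set against the other isoforms, the HIF-induced pair had the larger mean difference, but the other isoforms were not flat. Averaged over Car9 and Car12, the deviation from the WT mean was 0.99, 1.24 and 1.88 in Mll3-null replicates 1 to 3, against 0.30, -0.21 and -0.09 in WT replicates 1 to 3. Averaged over the 7 other measured members, it was -0.05, 0.85 and 0.69 in Mll3-null replicates 1 to 3, against 0.19, -0.25 and 0.05 in WT replicates 1 to 3. The pair thus stood 0.87 log2 units further from its WT level than the other members did, given with no test because the members were chosen with earlier results of these data known. With the median level of the other members in place of their mean the difference was 0.04, a median that falls on Car8, Car6 and Car2 in Mll3-null replicates 1 to 3. Among the Mll3-null arrays the gap was narrowest on replicate 2.

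Mll3-null replicate 1 was the array that parted Car9 from Car12, Car6, Car8 and Car5b. With it left out, these 5 of 9 members were all higher without overlap (15.7% of all genes). With Mll3-null replicate 2 or 3 left out, Car9 was the single such member (9.08% and 9.51% of all genes), as it was without WT replicate 3 (10.2%). Car12 joined it without WT replicate 1 (10.1%) and Car5b without WT replicate 2 (11.3%). Over the 6 arrays Car9 and Car12 had a Pearson r of 0.539, Car12 and Car8 of 0.811, and Car12 and Car5b of 0.820. These are descriptions over 6 points that share the group difference.

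Kit and Elf5, markers of luminal cells, had their high and low arrays in common with Car6 and Car8. Kit, a receptor of luminal progenitors, read 5.92, 8.76 and 8.16 in Mll3-null replicates 1 to 3, against 6.78, 5.38 and 6.83 in WT replicates 1 to 3. Elf5, a transcription factor of the alveolar lineage, read 6.59, 8.51 and 9.02 in Mll3-null cells, against 7.64, 6.002 and 7.39 in WT cells in the same order. As with Car6 and Car8, Mll3-null replicates 2 and 3 were the highest arrays and WT replicate 2 the lowest. Over the 6 arrays Car6 had an r of 0.971 with Elf5 and 0.936 with Kit. No other measured gene of the luminal list had all of these as its highest and lowest arrays. The order was not particular to luminal markers. Mb, of the skeletal muscle list, had it too. It read 5.62, 6.31 and 7.12 in Mll3-null replicates 1 to 3, against 5.71, 5.45 and 5.65 in WT replicates 1 to 3. Oxtr, of the basal list, was also highest on Mll3-null replicates 3 and 2 (8.35 and 6.54), but lowest on Mll3-null replicate 1 (4.74). Krt8, Krt18, Krt19 and Gata3 were also lowest on WT replicate 2. Foxa1, Pgr and Esr1 were instead lowest on Mll3-null replicate 2 (6.46, 4.15 and 5.95). The whole luminal list, 11 of 12 genes measured, averaged 8.41 to 9.07 on Mll3-null arrays and 8.07 to 8.73 on WT arrays. Of its genes 7 had a higher mean, as had 51.5% of all genes. Unlike Kit, the list was lower on Mll3-null replicate 2 (8.41) than on replicate 1 (8.52). Of the basal list 11 of 12 genes were measured, 4 with a higher mean (51.5% of all genes). The basal list averaged 5.58 to 7.87 on Mll3-null arrays and 7.36 to 7.69 on WT arrays. The low end was Mll3-null replicate 3 alone: without that array the Mll3-null means were 7.69 and 7.87, and 8 of the 11 basal genes had a higher mean, while 2 did without Mll3-null replicate 1. The part of cell composition in the values of Car6 and Car8 was not tested.

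**Figure D3:**
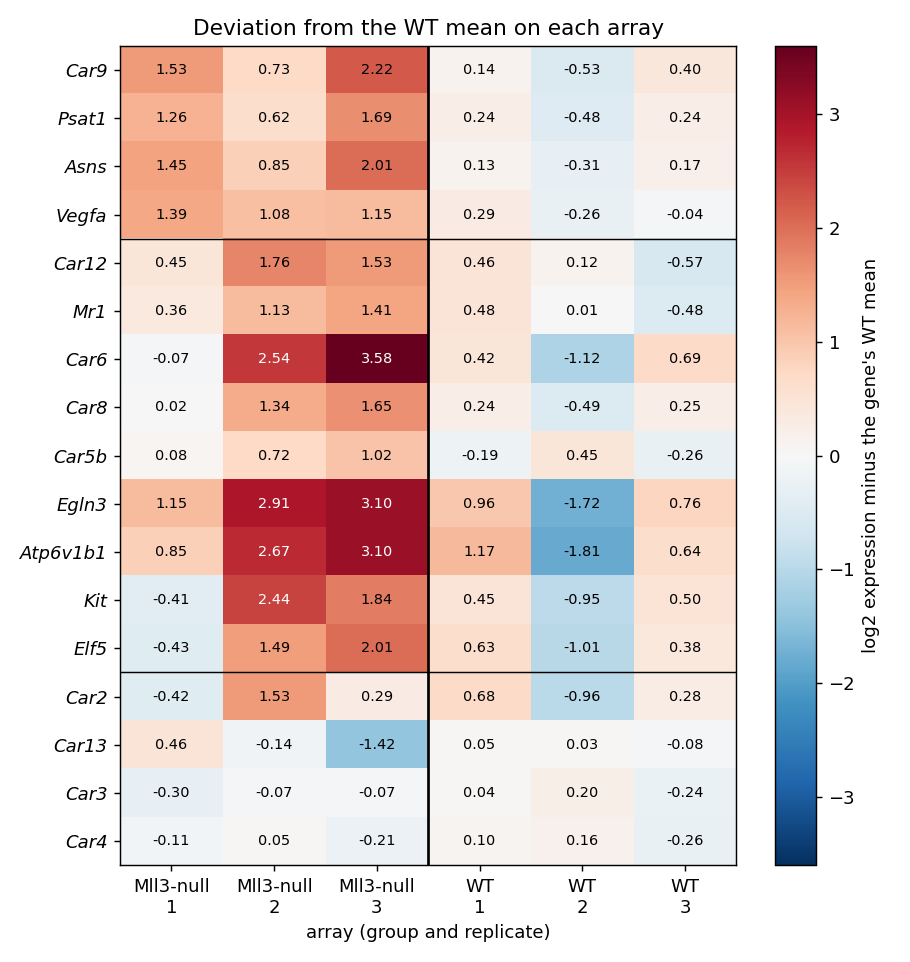
Log2 expression on each array minus the gene's WT mean, for the 9 measured carbonic anhydrase genes and 8 genes named beside them; red is above and blue below the WT mean. Car9, with Psat1, Asns and Vegfa, is above it on all 3 Mll3-null arrays (0.73 to 2.22 for Car9). Car12, Car5b, Mr1, Egln3 and Atp6v1b1 are also above it on all 3, least on replicate 1 (0.45 for Car12 and 0.08 for Car5b). Car6, Car8, Kit and Elf5 stand high on Mll3-null replicates 2 and 3 and near or below the WT mean on Mll3-null replicate 1.

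The genes whose pattern was most like that of Car9 over the 6 arrays were sought among 2086 named genes with a mean over 6 and an SD of at least 0.3 (log2). The 5 with the highest Pearson r were Psat1, an enzyme of serine synthesis (0.994), Phf10, a subunit of a chromatin remodelling complex (0.994), Asns, asparagine synthetase (0.988), Aldh18a1, an enzyme of proline synthesis (0.984), and Tars, threonyl-tRNA synthetase (0.973). Psat1 read 8.49, 7.85 and 8.91 in Mll3-null replicates 1 to 3, against 7.46, 6.75 and 7.46 in WT replicates 1 to 3. Asns read 9.44, 8.84 and 10.004 in Mll3-null cells, against 8.12, 7.68 and 8.16 in WT cells. For all 5 genes the Mll3-null arrays lay above the WT arrays, as for 5.44% of all genes. These arrays stood in the order of Car9, with replicate 3 highest and replicate 2 lowest. The genes were chosen for likeness to Car9, so both traits largely restate that choice. Among the HIF targets outside the family, the highest r with Car9 was that of Vegfa, the angiogenic growth factor (0.853), followed by Ndrg1 (0.833) and Ero1a (0.811). The r of P4ha2 (-0.809), Angptl4 (-0.793), Pfkfb4 (-0.749) and Ddit4 (-0.045) lay below 0, and that of the other measured targets above 0. With 6 points and a group difference in common, such values are a ranking of likeness and no more.

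For Car12 the 5 most similar patterns were those of Mr1, an antigen-presenting molecule (0.974), Chd3, a chromatin remodeller (0.966), Stard5, a sterol-binding protein (0.951), Prxl2a (0.942) and Dbp, a circadian transcription factor (0.936). Mr1 read 8.18, 8.95 and 9.23 in Mll3-null replicates 1 to 3, against 8.30, 7.83 and 7.34 in WT replicates 1 to 3. As for Car12, Mll3-null replicate 1 lay below WT replicate 1, and WT replicate 3 was the lowest array, which largely restates the choice by r. No gene stood in both lists of 5, and none could. Car9 and Car12 had an r of 0.539, too low for 1 pattern to reach the r of both lists.

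The HIF targets outside the family were mostly higher in mean, though none passed the correction. Of 20 listed genes 19 were measured, 15 with a higher and 4 with a lower mean, where 51.5% of all genes were higher. The median difference was 0.34 log2 units, against 0.01 over all genes. For 6 of the 19, Vegfa, Ndrg1, Bnip3, Pdk1, Pgk1 and Ero1a, no Mll3-null array overlapped the WT arrays, as for 5.44% of all genes. Without WT replicate 1 there were 11 such genes (10.1% of all genes), and without WT replicate 2 the median difference of the list was 0.20. Vegfa read 9.71, 9.39 and 9.46 in Mll3-null replicates 1 to 3, against 8.61, 8.06 and 8.28 in WT replicates 1 to 3, a difference of 1.21 ± 0.16 (log2, SE). The lower member of smallest p was P4ha2, a collagen prolyl hydroxylase, at -0.37 ± 0.23. The widest lower difference was that of Angptl4, at -1.01 ± 0.77 (log2, SE). Its groups overlapped, and it was lowest on Mll3-null replicate 3. Of the 19 targets 2 were at least 2-fold higher (0.532% of all genes) and 1, Angptl4, at least 2-fold lower (0.622% of all genes). Unlike Car9, Vegfa was highest on Mll3-null replicate 1.

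Of the 10 HIF subunits and oxygen sensors, 9 had a higher mean, as had 51.5% of all genes. Their median difference was 0.17 and 0 passed the correction. Egln3, a prolyl hydroxylase that marks HIF for degradation and is itself a HIF target, read 8.71, 10.48 and 10.66 in Mll3-null replicates 1 to 3, against 8.52, 5.84 and 8.32 in WT replicates 1 to 3. Its groups did not overlap, and it had its low array, WT replicate 2, and its high arrays in common with Car6 (r = 0.925). Vhl, which recruits the ubiquitin ligase to HIF, differed by -0.01 ± 0.10.

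The partners of carbonic anhydrases in acid-base transport had list medians close to that of all genes. Of the subunits of the V-ATPase, the vacuolar proton pump, 21 of 22 were measured (median 0.06) and 0 passed the correction. A higher mean was found for 16, and for 51.5% of all genes. This count rested on single arrays, since 7 of the 21 had a higher mean without Mll3-null replicate 3 and 10 without WT replicate 1. Atp6v1b1, the B1 subunit typical of acid-secreting cells such as those of the kidney collecting duct, read 8.19, 10.02 and 10.44 in Mll3-null replicates 1 to 3, against 8.51, 5.53 and 7.98 in WT replicates 1 to 3. Its difference of 2.21 ± 0.90 (log2, SE; adjusted p of 0.84 by limma) came with overlapping groups, and over the 6 arrays it had an r of 0.932 with Car6 and 0.939 with Car8. The V0 subunit gene Atp6v0e2 was the lower member of smallest p, at -0.98 ± 0.38.

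Of 13 genes listed under the export of protons and lactate, 12 were measured (median 0.10) and 0 passed the correction. A higher mean was found for 9, and for 51.5% of all genes. Atp4a, the gastric proton pump, separated the groups by 0.29 ± 0.08 log2 units at a dim level of 4.17 to 4.57. Slc9a3, a sodium-proton exchanger, differed by -0.18 ± 0.12. The 1 gene of this list at least 2-fold lower (0.622% of all genes) was Emb, also named after its values were seen. Its difference was -1.16 ± 0.85 (log2, SE) with overlapping groups, and it was lowest on Mll3-null replicate 3 (8.37). The lactate exporter gene Slc16a3, a HIF target in other cells (named after its values were seen), read 8.32, 7.54 and 5.25 in Mll3-null replicates 1 to 3, against 7.75, 5.86 and 5.90 in WT replicates 1 to 3. It was lowest on Mll3-null replicate 3, where Car9 was highest. Of 14 bicarbonate transporters of the Slc4 and Slc26 families 13 were measured (median -0.01), and 0 passed. The mean was higher for 6 and lower for 7, where 51.5% of all genes were higher. Slc4a2, a chloride-bicarbonate exchanger, differed by 0.34 ± 0.19. Slc4a11, which belongs to the Slc4 family but is known for proton rather than bicarbonate transport, read 9.59, 7.62 and 8.63 in Mll3-null replicates 1 to 3, against 9.27, 9.53 and 9.80 in WT replicates 1 to 3. Its groups overlapped, with Mll3-null replicate 1 inside the WT range, and differed by -0.92 ± 0.47 (log2, SE).

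**Figure D4:**
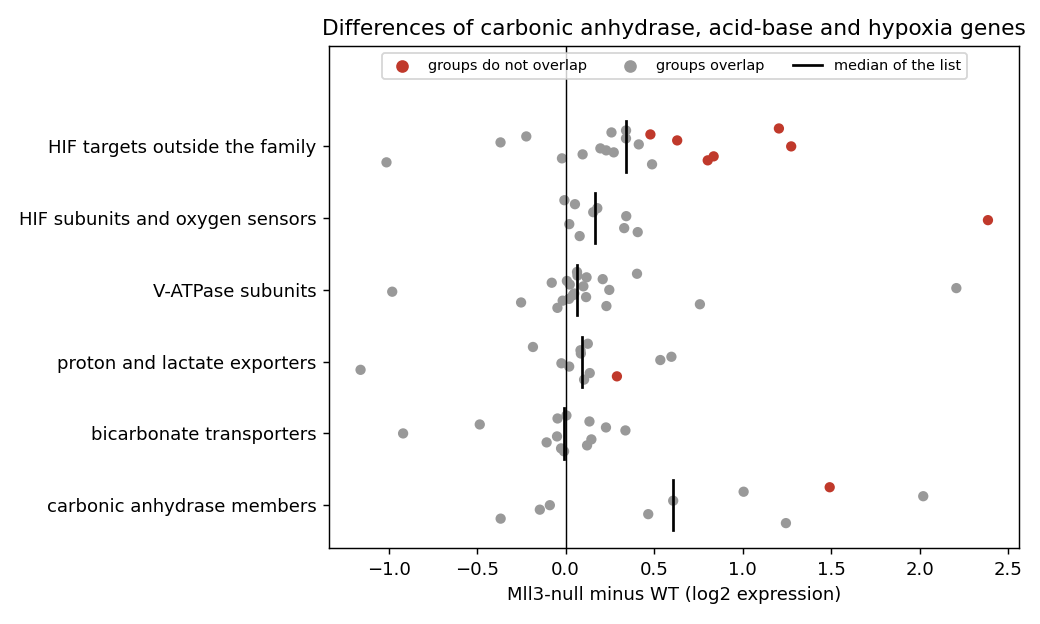
Difference in log2 expression, Mll3-null minus WT, of the genes in each list; red points are genes whose groups do not overlap, and vertical bars are list medians. The median lies at 0.61 for the carbonic anhydrase members and 0.34 for the HIF targets outside the family, and between -0.01 and 0.17 for the other 4 lists.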

How the data were processed

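Affymetrix Expression Console is the tool named for making the values, per the submitters' processing notes; no version, summarization or normalization is stated there. The values the authors deposited, for 41345 probe sets on 6 single-channel arrays, were read as log2 expression because they run from 1.72 to 13.56 with near-equal quartiles. Dim genes were kept, as no detection call was used. Of these probe sets 23521 were listed with 1 gene symbol and 1814 with several. The probe set of highest mean stood for each of 1082 genes that had more than 1.

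Mll3-null and WT arrays were compared by a two-sided test in limma 3.58.1 (R 4.3.3) that held genotype alone, fitted with lmFit and eBayes, with Benjamini-Hochberg adjustment over 22180 genes and a threshold of 0.05. An exact permutation test of 3 against 3 arrays cannot go below 0.1 and was not used. The script was tested on simulated data.

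The members and lists were chosen with earlier results of these data known. Named genes are the members, the remaining carbonic anhydrases, Kmt2c, the gene of smallest p in each direction of each list, and the 5 genes most like Car9 and Car12. Kit, Elf5, the HIF targets other than Vegfa and P4ha2, and the other markers given with values were named after their values were seen. The cell type lists were used as array means. The remaining ones were dim. They were fibroblast (4.17 to 4.34 in Mll3-null and 4.12 to 4.29 in WT) and endothelial (3.76 to 3.89 in Mll3-null and 3.78 to 3.88 in WT). The others were immune (3.82 to 3.88 in Mll3-null and 3.79 to 3.93 in WT) and erythroid (3.60 to 3.73 in Mll3-null and 3.46 to 3.74 in WT). Of the immune list 6 of 7 genes were measured, and of the erythroid list only 2 of 7.

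The groups share replicate numbers, which the labels connect with no common animal or day. Deviations of same-numbered arrays correlated at 0.035, 0.079 and 0.31, and those of differently numbered arrays at -0.29 to 0.22. Deviations centred within groups of 3 arrays cannot decide whether the arrays are paired. For want of a label the numbers were not taken to pair them in the main fit.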

Additional observations from a re-analysis of the deposited data

How the results depend on the processing

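No member passed the correction, and no gene of any kind did, under any alternative that was run: other variance models, array weights, filters on dim genes, quantile or median scaling, other probe sets, all probe sets, a stricter threshold, the replicate block and leaving out each array. The count at an unadjusted p under 0.05 was 1093 of 22180 genes, 2504 with array weights and from 716 to 2742 when 1 array was left out (lowest without Mll3-null replicate 2, highest without Mll3-null replicate 1). With the replicate block, which left the differences as they were, that count was 1290 and the adjusted p of Car9 and Car12 was 0.756. The difference of Car9 lay between 1.13 and 1.87 when 1 array was left out (adjusted p from 0.32 to 0.99), at 0.62 with its dimmer probe set, at 1.01 with array weights and at 0.86 without both Mll3-null replicate 3 and WT replicate 2, an alternative chosen after seeing the data. That of Car12 lay between 0.96 and 1.64 (adjusted p from 0.19 to 0.99). With 1 array left out, Car13 ran from -0.78 to 0.16 (without Mll3-null replicate 3) and Car2 from -0.066 (without Mll3-null replicate 2; -0.015 without WT replicate 2) to 0.91, so both signs turned, as did that of Car3 with its dimmer probe set (0.053). Members at least 2-fold higher numbered from 2 (without Mll3-null replicate 2) to 4, with no share of all genes computed when an array was left out. Members higher without overlap numbered from 1 to 5. There were 5 without Mll3-null replicate 1 (15.7% of all genes). There were 2 without WT replicate 1 (10.1%) or 2 (11.3%), and 1 in the other settings (9.08% to 10.2%). Both counts were added after seeing the data. The gap between the HIF-induced pair and the other members was 0.71 to 1.11 when 1 array was left out. With the mean of a gene's probe sets in place of the brightest, the gap was 0.64. It was 0.038 with the median of the other members' levels, which takes the level of Car8, Car6 or Car2 depending on the array, and 1.07 with the median of their deviations from the WT mean, added after seeing the data. Counts of list genes with an array left out, also added after seeing the data, ran widely for the V-ATPase (7 to 18 of 21 with a higher mean) and the basal markers (2 to 8 of 11). The number of arrays limits the precision, and for dim members such as Car3 and Car4 signal over background is unknown.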
